A study of Drosophila melanogaster with 4 samples.

Results

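The segmentation genes slp1, slp2, opa, wg and hh were examined for binding of dRING in whole wild-type embryos of Drosophila melanogaster (strain Oregon-R) aged 14 to 16 h, with chromatin immunoprecipitation followed by sequencing (ChIP-seq). The study held 2 ChIP libraries, made with the antibody dRING Q3200, and 2 input libraries, matched by number. The deposited files list enriched intervals, each with a score. Intervals called in a single ChIP library are named clusters here, and those of the list made for the series as a whole are named regions. The members were all intervals that overlapped 1 of 4 windows in FlyBase release 5, namely 2L from 3810000 to 3860000 (slp1 and slp2), 3R from 640000 to 710000 (opa), 2L from 7295000 to 7330000 (wg) and 3R from 18940000 to 18980000 (hh). This gave 21 of the 7465 regions of the series list, 13 of the 3473 clusters of replicate 1 and 17 of the 3061 clusters of replicate 2. Of these totals, 7386 regions, 3458 clusters and 3048 clusters lay on the 6 main chromosome arms, which serve as the comparison below.

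The windows were chosen by the intervals and scores that all 3 lists show there, so these values are described and not tested. The assignment of genes to windows is part of the choice and was not checked against an annotation of release 5, and where an interval lies relative to a promoter was not analysed here. In a release 6 gene table all 5 genes were found by symbol. In it slp1 and slp2 were direct neighbours on 2L, opa lay between CG14659 and laf on 3R, and hh lay between CG31457 and unk on 3R. The protein-coding neighbours of wg on 2L were the Wnt genes Wnt4 and Wnt6.

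dRING, encoded by Sex combs extra, is the RING-finger subunit of Polycomb repressive complex 1, which keeps developmental genes silent in cells where they were not switched on and ubiquitinates histone H2A at its targets. The 5 genes act in the division of the fly embryo into segments. slp1 and slp2 encode closely related forkhead transcription factors, and opa encodes a zinc-finger transcription factor of the Zic family that acts among the pair-rule genes. wg encodes a secreted Wnt ligand and hh the secreted Hedgehog ligand, which signal between neighbouring rows of cells at the borders of parasegments and are reused later in many tissues. Whole embryos hold cells in which these genes are on and cells in which they are off, and more bound cells cannot be told apart from more binding per cell.

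In the series list the windows of opa and of slp1 and slp2 each held a long region of dRING enrichment, of 47.8 and 31.9 kb. The regions of the wg and hh windows were at most 7.65 kb long. Each library split both long regions into more than 1 cluster. In the opa window replicate 1 clusters covered 73.1% of the bases and replicate 2 clusters 49.6%, and in the slp1 and slp2 window they covered 64.0% and 29.8%. In the hh window cover was 23.3% in replicate 1 and 14.3% in replicate 2, and in the wg window 14.2% and 15.1%. Over the whole of the 6 arms, replicate 1 covered 7.57% and replicate 2 covered 5.94%. All 4 windows had more cover than the arms at large in both libraries, and the windows were chosen for that content. Cover was 42.9 ± 11.6 kb for opa, 23.5 ± 12.1 kb for slp1 and slp2, 7.52 ± 2.55 kb for hh and 5.13 ± 0.21 kb for wg (mean ± SD, n = 2 ChIP libraries for each). In kb, the values of the libraries did not overlap between opa (34.7 and 51.2 kb) and slp1 and slp2 (14.9 and 32.0 kb). Nor did they between hh (5.71 and 9.32 kb) and wg (4.98 and 5.28 kb). The windows differ in length, at 70.0 kb for opa, 50.0 kb for slp1 and slp2, 40.0 kb for hh and 35.0 kb for wg. As shares of the window, the ranges of opa and of slp1 and slp2 overlapped, as did those of hh and wg. Within each library the opa share was above that of slp1 and slp2. The hh share was above the wg share in replicate 1 and below it in replicate 2. With 2 libraries no test was made of these differences.

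**Figure D1:**
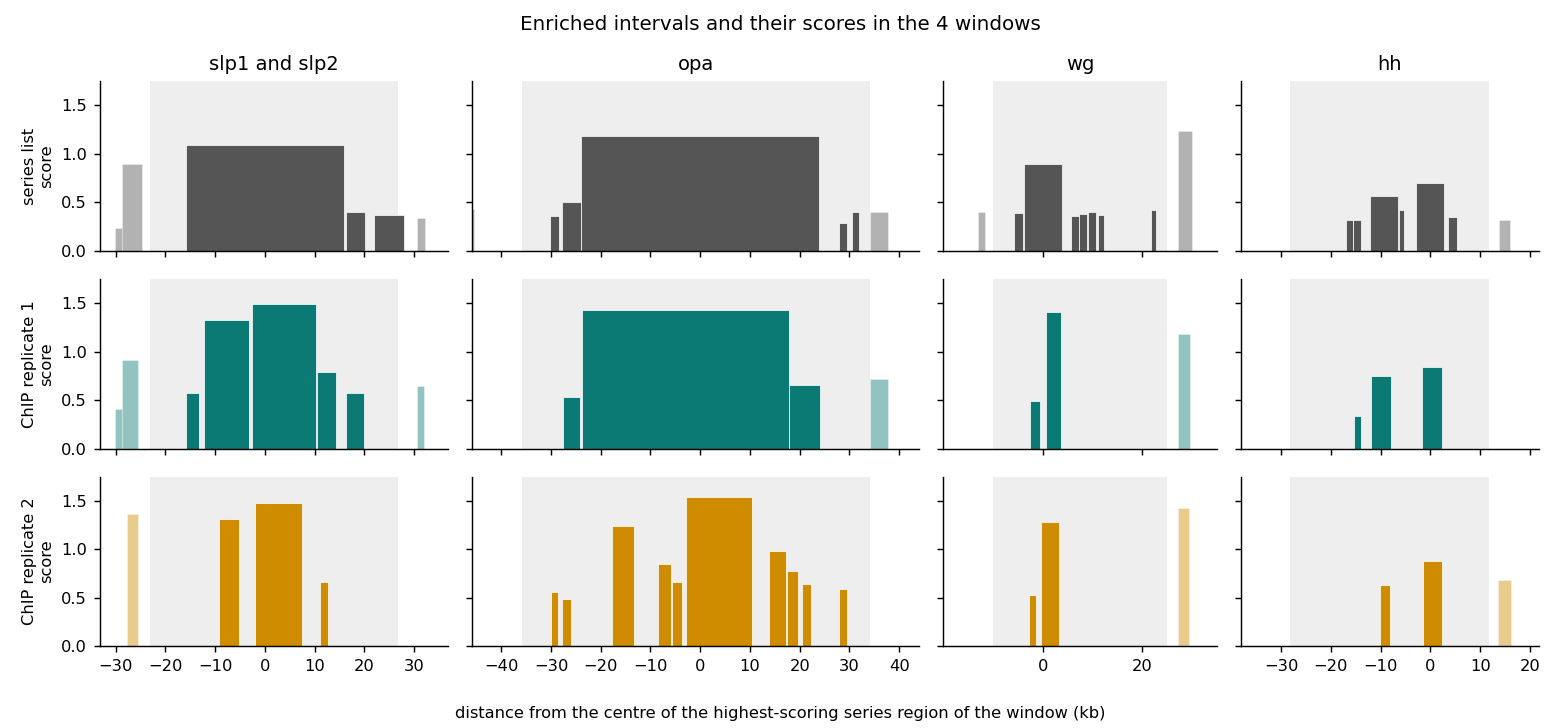
Enriched intervals in the windows of slp1 and slp2, opa, wg and hh (columns) in the series list and the 2 ChIP libraries (rows). The horizontal axis gives the distance in kb from the centre of the highest-scoring series region of the window, the height of a bar the authors' score, grey shading the window and pale bars the intervals within 10 kb outside it. In the opa window 1 cluster of 41.6 kb in replicate 1 stands over 6 clusters of replicate 2, while the bars of wg and hh are narrower.

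**Figure D2:**
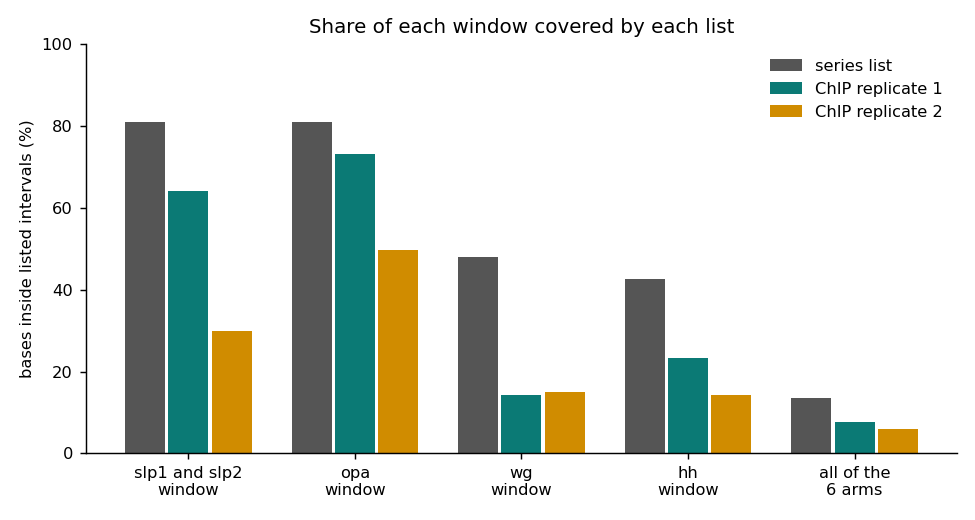
Share of the bases of each window inside intervals of the series list, ChIP replicate 1 and ChIP replicate 2 (bars, in percent), beside the same share over all 6 arms. Cover in the replicates runs from 14.2% to 73.1% in the windows, against 7.57% and 5.94% over the arms.

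The share of regions found in both libraries was close to that of the rest of the list. Of the 21 regions, 6 (28.6%) were met by a cluster in each replicate, as were 28.4% of all regions on the arms. A further 2 regions were met by replicate 1 alone, 2 by replicate 2 alone and 11 by neither. The 6 regions held 77.5% of the bases of the 21. They were 3794 to 47785 bp long with series scores of 0.50 to 1.19, while the other 15 were 1001 to 5966 bp long with scores of 0.29 to 0.42. The share of bases and this split were not compared with all regions on the arms. At an overlap of 1 bp a longer region is more easily met. The median score on the arms was 0.42, and the highest of these 15 lay close to it, at rank 3686 of 7386. No cluster of either library was under 1301 bp, while the series list begins at 1001 bp, and 3 of the 11 regions met by neither replicate had lengths in between.

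The opa window held the longest region of the 4, from 652030 to 699814 on 3R. At 47.8 kb it ranked 3rd in length among the 7386 regions on the arms, a set in which 1.44% were 10 kb or longer. Its series score of 1.19 ranked 490th. Replicate 1 filled 99.7% of it with 2 clusters, the larger from 652102 to 693745 with a score of 1.43, the other from 693805 to 699905 with a score of 0.66. A gap of 59 bp separated these clusters. The larger cluster, of 41.6 kb, ranked 2nd in length in replicate 1.

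Replicate 2 divided the same opa region into 7 clusters that covered 61.9% of it. The longest ran from 673146 to 686280 (13.1 kb) and had the highest score of the window in that library, 1.54. To its left stood clusters from 658278 to 662639 with a score of 1.24, from 667347 to 670004 with 0.85 and from 670241 to 672263 with 0.66. To its right stood clusters from 689662 to 693069 with 0.98, from 693339 to 695549 with 0.78 and from 696360 to 698156 with 0.65. Replicate 2 had no cluster at the left end of the region. The gap there was 8283 bp wide and began outside the region, at 649994. Its widest gaps wholly inside the region were 4707 bp, right of the cluster with 1.24, and 3381 bp, right of the longest cluster. The larger replicate 1 cluster ran across both of these. The highest scores of the libraries, 1.43 and 1.54, gave a mean of 1.48 ± 0.08 (SD, n = 2).

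At the edges of the opa window the libraries differed. A region from 648081 to 651874, 155 bp left of the long one, was met by both, with cluster scores of 0.54 in replicate 1 and 0.49 in replicate 2. The regions from 645673 to 647578 and from 703754 to 705444 were met by replicate 2 alone, with cluster scores of 0.56 and 0.59. The region from 706347 to 707816 was met by neither.

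The slp1 and slp2 window held a region of 31.9 kb, from 3817239 to 3849116 on 2L, which ranked 7th in length and 572nd in score (1.10). Both libraries placed their highest score in its middle. In replicate 1 this was the cluster from 3830644 to 3843543 (12.9 kb) with a score of 1.49, and in replicate 2 the cluster from 3831296 to 3840668 (9.37 kb) with a score of 1.48, which lay wholly inside it. The mean was 1.49 ± 0.01 (SD, n = 2). A second place lay to the left, with scores of 1.33 in replicate 1 (3820917 to 3830054) and 1.31 in replicate 2 (3824063 to 3828008). Another lay to the right, with 0.79 in replicate 1 (3843728 to 3847531) and 0.67 in replicate 2 (3844233 to 3845814).

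Both libraries had clusters at these 3 places of the long slp1 and slp2 region, and the clusters were wider in replicate 1. The outermost clusters of replicate 1, from 3817282 to 3819938 with a score of 0.58 and from 3849594 to 3853111 with 0.57, had no counterpart in replicate 2. Replicate 2 covered 46.7% of the long region and replicate 1 covered 89.4%. In replicate 1 the clusters of the long region were 184 to 978 bp apart, and in replicate 2 they were 3287 and 3564 bp apart. The remaining region, from 3855224 to 3861189, crossed the edge of the window, was 5966 bp long with a score of 0.36, and was met by neither library.

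The opa and slp regions were set beside the other 104 regions of 10 kb or longer. Of these, 2 were longer than the opa region and 5 longer than the slp region. Scores were less extreme, with 28 of the 104 above the opa region and 44 above the slp region, around a median of 1.06. Replicate 2 covered more of the region in 35 of the 104 than in opa and in 73 of the 104 than in slp, around a median of 55.4%. The opa region held 7 replicate 2 clusters, a number exceeded in 2 of the 104 (median 2, highest 8). Most of the 104 were far shorter, with a median length of 13.8 kb. The regions nearest to opa in length, of 47.7 kb on 3L and 49.1 kb on 3R, held 6 and 8. The slp region held 4 replicate 1 clusters, exceeded in 3 of the 104 (median 2, highest 5).

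**Figure D3:**
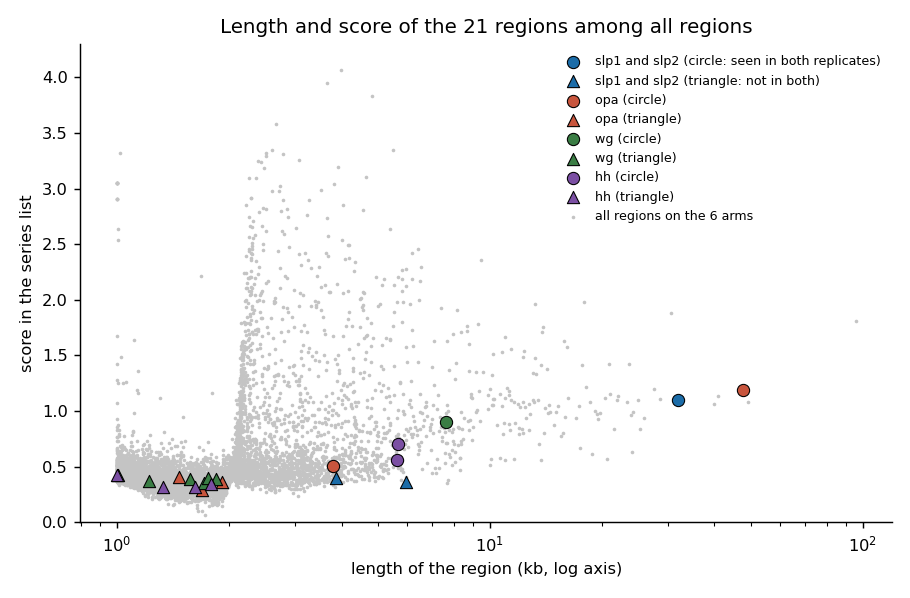
Length (kb, log axis) and series score of the 21 regions in the 4 windows (coloured, circles where both replicates had a cluster and triangles where they did not) over all 7386 regions on the arms (grey). The opa and slp regions stand far to the right at scores of 1.19 and 1.10, the wg region is at 7.65 kb and 0.90, and the hh regions are at 5.63 and 5.65 kb.

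In the wg window the clusters of both libraries lay in the left part. Of its 7 regions, 1 was met by both libraries, from 7301172 to 7308816 on 2L, with a length of 7.65 kb and a score of 0.90 (166th in length and 783rd in score). It held a strong and a weak cluster in each library. The strong cluster ran from 7305543 to 7308572 with a score of 1.41 in replicate 1 and from 7304547 to 7308323 with 1.28 in replicate 2, a mean of 1.35 ± 0.09 (SD, n = 2). The weak one ran from 7302400 to 7304351 with 0.49 in replicate 1 and from 7302163 to 7303669 with 0.53 in replicate 2. The other 6 regions, among them 4 in a row from 7310589 to 7317332, had scores of 0.35 to 0.42 and were met by neither library.

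The limit of the wg window left out a series region close by with a higher score. The highest region inside had a series score of 0.90, and the region from 7332136 to 7334994, 2136 bp beyond the right edge, had 1.23. The clusters of that outer region scored 1.18 in replicate 1 and 1.42 in replicate 2. On the far side of the window the nearest region, 1575 bp outside, had a score of 0.40 and no cluster. The strong cluster inside the window (1.41 in replicate 1 and 1.28 in replicate 2) was above the outer one in replicate 1 and below it in replicate 2, so the libraries ranked these places in opposite order.

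At the other window edges the nearest outside regions were as follows. Left of slp1 and slp2, a region from 3804467 to 3808471, 1529 bp outside, had a score of 0.89 and cluster scores of 0.92 in replicate 1 and 1.37 in replicate 2. Right of it, a region from 3863747 to 3865435, 3747 bp outside, had a score of 0.34 and a cluster of 0.64 in replicate 1 alone. Left of opa, a region 9661 bp outside had a score of 0.44 and no cluster. Right of opa, a region from 710025 to 713658, 25 bp outside, had a score of 0.40 and a cluster of 0.72 in replicate 1 alone. Right of hh, a region from 18981924 to 18984213, 1924 bp outside, had a score of 0.32 and a cluster of 0.69 in replicate 2 alone. Left of hh, no interval of the 3 lists lay within 10 kb.

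The hh window had 2 sites found in both libraries, of like length in the series list, and the lowest top scores of the 4 windows. The stronger, from 18965312 to 18970962 on 3R (5.65 kb, series score 0.70), had a cluster from 18966535 to 18970526 with a score of 0.84 in replicate 1 and from 18966643 to 18970379 with 0.88 in replicate 2. The mean was 0.86 ± 0.03 (SD, n = 2), and the cluster midpoints lay 19.5 bp apart. The weaker, from 18956021 to 18961653 (5.63 kb, series score 0.56), had clusters of 0.75 in replicate 1 (18956142 to 18960130) and 0.63 in replicate 2 (18958062 to 18960035). Their midpoints lay 912.5 bp apart, and the replicate 2 cluster was 1974 bp long, against 3737 bp at the stronger site. Over the 10 pairs of overlapping clusters described below, midpoints lay 19.5 to 6789.5 bp apart, closest at the stronger hh site. Between the 2 hh sites neither library had a cluster over 6404 bp in replicate 1 and 6607 bp in replicate 2. A further cluster, from 18952854 to 18954194, appeared in replicate 1 alone with a score of 0.34, which ranked 3371st of 3458.

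Within each library the top clusters of slp1 and slp2, opa and wg stood high in the list but below its peak. That of hh stood lower, though above the median. In replicate 1, whose highest score was 3.99 and whose median was 0.60, the top cluster of slp1 and slp2 ranked 283rd, that of opa 311th, that of wg 316th and that of hh 896th of 3458. In replicate 2, with a highest score of 4.46 and a median of 0.71, the top cluster of opa ranked 465th, that of slp1 and slp2 502nd, that of wg 640th and that of hh 1084th of 3048. The top scores of slp1 and slp2, opa and wg spanned 0.08 in replicate 1 and 0.26 in replicate 2, and their order was not the same in both. In both libraries the hh score was below the other 3.

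Most clusters of the windows met a cluster of the other library, and replicate 1 covered more bases in each window other than wg. Of the replicate 1 clusters in the windows 10 of 13 overlapped a replicate 2 cluster (63.3% of all on the arms did), and of the replicate 2 clusters 15 of 17 overlapped a replicate 1 cluster (76.8% of all). The clusters shared 55.9 kb, which was 57.3% of the 97.5 kb of replicate 1 and 92.2% of the 60.6 kb of replicate 2. In the slp and hh windows the replicate 2 clusters lay entirely within replicate 1 clusters, in opa 89.9% of their bases did, and in wg 76.7%. Of the 17 replicate 2 clusters, 11 lay wholly inside a replicate 1 cluster (28.3% of all replicate 2 clusters did). Of these 11, 6 were in opa, 3 in slp and 2 in hh. The replicate 1 clusters around them were 3.80 to 41.6 kb long, against a median of 2008 bp in replicate 1. Clusters of matched length were not compared.

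Each replicate 1 cluster was also paired with the replicate 2 cluster it shared most bases with, which gave 10 pairs in the windows. Replicate 2 had the higher score in 3 of the 10, with differences (replicate 2 minus replicate 1) from -0.13 to 0.11 and a median of -0.01. Over all 2188 pairs on the arms replicate 2 was higher in 76.1%, with a median difference of 0.15. Paired from the side of replicate 2, 4 of 15 clusters in the windows had the higher score in replicate 2, against 71.4% of all. In opa, several of these were set against the same replicate 1 cluster, with a score of 1.43. Their differences from it were -0.19, -0.58, -0.77 and -0.45, and 0.11 for the longest. In the other 104 regions of 10 kb or longer replicate 2 was higher in 101 of 141 pairs, with a median of 0.12. The pairs within a window are neighbouring stretches of the same locus and not independent, and how the score compares between lists is not given. The contrast was noticed after the values had been seen, and no test was made of it.

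**Figure D4:**
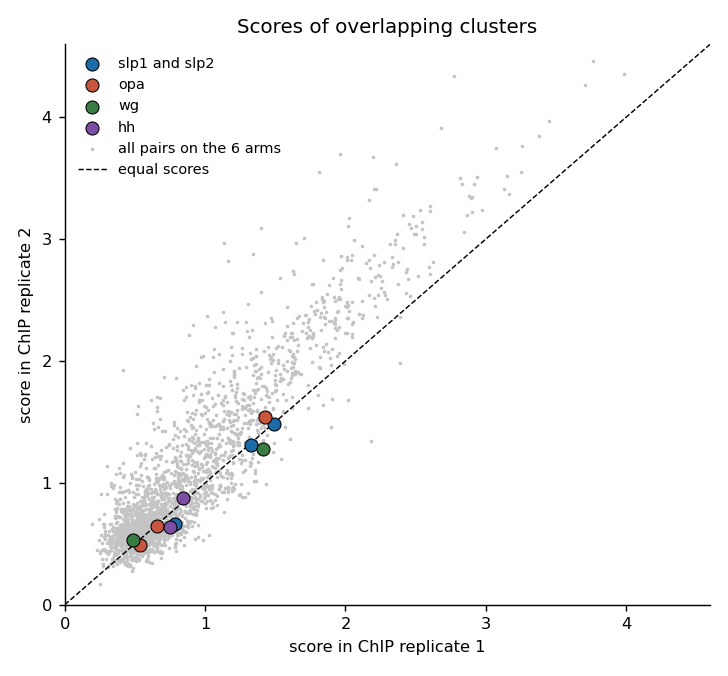
Scores of overlapping clusters in ChIP replicate 1 (horizontal) and ChIP replicate 2 (vertical), for the 10 pairs in the windows (coloured by window) and all 2188 pairs on the arms (grey), with a dashed line at equal scores. The 2 scores of a pair in the windows differ by at most 0.13. Of the 10 pairs 3 lie above the line, while 76.1% of all pairs do. Each replicate 1 cluster is shown with 1 replicate 2 cluster only. Other replicate 2 clusters of opa differ from the same replicate 1 cluster by as much as -0.77.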

How the data were processed

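Per the labels, chromatin came from Oregon-R embryos fixed with formaldehyde. The submitters' processing notes name Bowtie 0.12.7 as a tool, and positions are in FlyBase release 5 according to the file headers. How intervals were called, at what threshold, and how the series list was put together are points not given in the sources used here. Each interval carries the authors' deposited score, which has no stated scale and was used to describe and rank intervals within a list. Inputs entered through the authors' calls alone. The lists hold no read counts, so depth is unknown. The labels do not say if the replicates are separate embryo collections, and their spread may be technical.

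Intervals were read with Python 3.11.15, and figures were made with matplotlib 3.10.9. Positions count from 1, and an overlap of 1 bp was enough. Cover was clipped to the windows. Ranks and background shares used the 6 main arms (X, 2L, 2R, 3L, 3R, 4). The interval functions were tested on simulated data and equalled a direct count per base in 50 of 50 lists. The members and the rule for naming regions (10 kb or longer, and the highest score per list) were chosen with earlier results of these data known. Further intervals, including all those outside the windows, were named after their values were seen. No tests were made, as all 3 lists entered the choice of windows. Planned promoter sequences, motif searches and protein comparisons were not made, and other segmentation genes were not analysed here. The gene table used is of release 6, and no positions were carried from it to release 5.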

Additional observations from a re-analysis of the deposited data

How the results depend on the processing

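Of 84 values recomputed per window, 16 were the cover or highest score of 1 replicate alone, which lie within 1 SD of a mean of 2 by construction and say nothing of stability. Cover with 1 replicate alone ranged from 14.9 to 32.0 kb for slp. Of the other 68 values, 54 stayed within 1.5 times (counts and shared bases) or 1 SD of the replicates (cover and highest scores). These 54 include all values from keeping only intervals wholly inside the window, which also say nothing of stability. That setting could change none, because every cluster of the windows lay wholly inside and the region across an edge was met by neither library. Among the highest scores only widening could change a value, because each top cluster lies inside its window and above the median of its list, and it moved that of wg to 1.42, against 1.35 as reported. The 14 exceptions follow. With windows widened by 10 kb on each side, regions seen in both replicates numbered 2 for slp and 2 for wg in place of 1 each, and wg cover was 7.52 kb and its shared bases 6.29 kb, in place of 5.13 and 4.05 kb. Above the median score of each list, regions seen in both numbered 1 for opa and 1 for hh in place of 2 each, wg cover was 3.40 kb and hh shared bases 3.74 kb in place of 5.71 kb. With an overlap of 50% required, such regions numbered 0 for slp, 1 for opa and 1 for hh. Merging clusters less than 1 kb apart gave wg a cover of 5.57 kb. With each replicate alone, the regions seen ranged from 1 to 2 for slp and from 2 to 4 for opa. Each change follows from which intervals the alternative keeps, adds or joins. The limit for cover was as narrow as 0.21 kb for wg and as wide as 12.1 kb for slp, so the exceptions in cover do not rank the windows by stability. Above the median score, cover was 19.6 kb for slp, 36.8 kb for opa and 5.86 kb for hh, all within their wider limits. Shared bases need both replicates and have no value with 1 alone. No paired analysis was possible because no result comes from a test and the input samples have no values of their own here.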
